A study of Mus musculus with 7 samples.

Results

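The genes described here are those of the hypoxia-inducible factor (HIF) pathway, its hypoxia targets and glycolysis in the mouse uterus. They were taken from a list of 37 symbols, and all 37 were rows of the deposited expression table, which has 31274 rows in all. The list holds 4 HIF subunits, 5 genes for oxygen sensors and VHL, and 11 hypoxia targets. It also holds 3 glucose and lactate transporters and 14 glycolytic enzymes or enzymes that regulate glycolysis. RNA sequencing had been done on uteri of intact, untreated CD-1 mice, an outbred stock, at 2 months of age, with 3 libraries labelled estrus and 4 labelled diestrus. No transgene, deletion or agent is named for either group. The study named ChIP-seq of Hif2a, the protein of Epas1, among its assays, next to those of the estrogen and progesterone receptors.

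HIF is a pair of an oxygen-labile alpha subunit and the stable partner Arnt. With oxygen present, prolyl hydroxylases of the Egln family mark the alpha subunit, Vhl then brings it to a ubiquitin ligase, and Hif1an blocks its coactivator contact by hydroxylating an asparagine. With little oxygen the pair binds a short core motif in DNA and switches on genes for glucose uptake, glycolysis, lactate export and blood vessel growth. Much of this control acts on protein, which RNA levels do not show.

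Promoter windows are shown for some of the members that rose or fell below and that share the core letters of HIF binding. Other such members are counted below but not shown. Tpi1 is shown as a member that rose and has none of these letters. Each runs from 250 bases before to 50 bases after a RefSeq gene start (GRCm38.p6, the first start listed), 5′ to 3′ on the strand of the gene. Capitals mark ACGTG or GCGTG read on either strand, so that CACGT and CACGC are marked too. CACGTG holds ACGTG on both strands, and neighbouring matches that overlap form 1 capital run.
Egln3, chr12:54203825-54204124, minus strand: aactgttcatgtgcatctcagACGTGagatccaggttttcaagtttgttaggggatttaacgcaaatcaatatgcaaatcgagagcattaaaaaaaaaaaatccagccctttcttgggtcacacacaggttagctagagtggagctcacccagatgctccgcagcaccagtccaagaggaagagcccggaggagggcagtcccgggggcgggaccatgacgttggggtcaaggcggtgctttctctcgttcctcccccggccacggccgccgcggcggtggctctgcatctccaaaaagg
Ankrd37, chr8:45999801-46000100, minus strand: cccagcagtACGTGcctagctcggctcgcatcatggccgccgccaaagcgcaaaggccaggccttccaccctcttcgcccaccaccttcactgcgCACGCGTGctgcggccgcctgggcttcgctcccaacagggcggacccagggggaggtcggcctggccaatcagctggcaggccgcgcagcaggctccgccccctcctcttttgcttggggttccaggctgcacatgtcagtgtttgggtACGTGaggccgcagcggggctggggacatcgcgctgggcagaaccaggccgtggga
Ddit4, chr10:59951721-59952020, minus strand: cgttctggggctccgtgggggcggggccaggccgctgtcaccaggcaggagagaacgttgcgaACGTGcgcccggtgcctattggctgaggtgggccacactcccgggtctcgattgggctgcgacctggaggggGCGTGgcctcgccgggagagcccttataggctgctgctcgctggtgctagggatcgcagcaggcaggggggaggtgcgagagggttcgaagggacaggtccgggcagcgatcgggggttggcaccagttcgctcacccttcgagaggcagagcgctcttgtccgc
Ldha, chr7:46845554-46845853, plus strand: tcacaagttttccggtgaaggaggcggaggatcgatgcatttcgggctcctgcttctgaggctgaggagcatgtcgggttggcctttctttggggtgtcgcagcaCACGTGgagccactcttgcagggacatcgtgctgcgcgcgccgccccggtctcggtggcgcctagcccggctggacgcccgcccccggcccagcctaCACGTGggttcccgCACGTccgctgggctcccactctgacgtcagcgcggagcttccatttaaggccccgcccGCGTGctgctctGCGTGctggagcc
Pgk1, chrX:106186850-106187149, plus strand: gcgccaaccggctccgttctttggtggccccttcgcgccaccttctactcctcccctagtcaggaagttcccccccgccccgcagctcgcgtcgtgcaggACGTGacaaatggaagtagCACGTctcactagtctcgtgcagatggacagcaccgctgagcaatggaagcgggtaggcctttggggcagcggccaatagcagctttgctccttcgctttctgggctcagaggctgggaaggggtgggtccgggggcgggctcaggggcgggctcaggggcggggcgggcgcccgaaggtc
Tpi1, chr6:124814109-124814408, minus strand: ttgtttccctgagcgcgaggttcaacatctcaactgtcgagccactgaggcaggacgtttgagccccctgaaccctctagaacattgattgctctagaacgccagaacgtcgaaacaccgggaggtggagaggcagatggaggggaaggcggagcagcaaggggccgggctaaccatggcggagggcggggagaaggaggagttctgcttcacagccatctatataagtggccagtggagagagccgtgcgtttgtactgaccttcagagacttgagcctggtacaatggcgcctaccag
P4ha2, chr11:54100674-54100973, plus strand: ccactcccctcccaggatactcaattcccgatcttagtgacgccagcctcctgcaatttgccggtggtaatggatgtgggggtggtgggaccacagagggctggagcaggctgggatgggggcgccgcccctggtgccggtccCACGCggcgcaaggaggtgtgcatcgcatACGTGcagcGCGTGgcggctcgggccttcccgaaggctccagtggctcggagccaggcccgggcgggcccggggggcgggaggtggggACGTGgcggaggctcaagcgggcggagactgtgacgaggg
The Ldha window has 5 capital runs, of which 2 are the palindrome CACGTG, and the Pgk1 window has 2. In the Ankrd37, Ddit4, Egln3 and P4ha2 windows there are 3, 2, 1 and 4. Windows were matched by symbol for 33 of the 37 members, and 29 of the 33, or 87.9%, held at least 1 match at any listed start. Counted the same way, the share was 66.9% of the 10023 tested genes that have a window and 46.7% of all 27025 genes with one. Of single windows of 300 bases, 43.8% of all 32851 held a match. Of the members with a window, 12 of 13 that rose, 3 of 3 that fell and 13 of 16 that did not pass held a match. So did the window of Hif3a, which was not tested for a change. A match is only a run of letters, and binding was not measured in these libraries.

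Values were FPKM, fragment counts scaled for transcript length and sequencing depth. Levels of different genes share that scale, except that genes with near-identical copies, named with the enzymes, may miss or share reads. The scale hides the counts, and depth in reads is unknown. Steps between low values gave depths of 0.920 to 1.36 times that of estrus replicate 1. Of all rows, 13920 reached 1 FPKM in at least 3 libraries and were tested. Diestrus replicate 1 stood apart from its group in that its 10 highest rows took 34.2% of the FPKM sum, against 33.7% to 38.2% in the estrus libraries and 12.1% to 18.7% in the other diestrus libraries. Uterine markers were present in every library, with a summed level of 6 genes of 270 to 334 FPKM in estrus and 456 to 555 FPKM in diestrus. Separate animals are not named in the labels, so that p-values describe only the spread among the 7 libraries, part of which may be technical.

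Hk2, Pfkl, Tpi1, Pgk1, Pgam1, Eno1 and Ldha of glycolysis rose at estrus. So did the sensors Egln1 and Egln3, the lactate exporter Slc16a3 and the hypoxia targets Ddit4, Ankrd37 and Pdk1. The HIF subunits Hif1a, Epas1 and Arnt did not pass the test, and Hif3a was not tested. Of the 36 tested members, 13 rose and 4 fell at estrus in limma on log2(FPKM + 1) with a Benjamini-Hochberg adjusted p under 0.05. Over all tested genes 31.1% changed, 17.2% upward and 14.0% downward. The share of members that rose, 36.1%, was above that background and the share that fell, 11.1%, was near it. The members were chosen with earlier results of these data known, so these shares describe the list and do not test it. The median log2 fold change was 0.35 for the members and 0.05 for all tested genes. By role, 7 of 14 glycolytic enzymes rose and 1 fell, and 3 of 11 hypoxia targets rose and 2 fell. Of the 5 genes for oxygen sensors and VHL, 2 rose, and of the transporters 1 rose and 1 fell. None of the 3 tested HIF subunits passed (limma, with 1 of them, Hif1a, under an unadjusted p of 0.05). The groups did not overlap for 12 members that were higher and 6 that were lower in estrus, where 21.9% and 18.7% of all tested genes were so separated. An exact two-sided permutation test with 35 arrangements reached its smallest possible p, 0.0286, for 12 of the 36 tested members. The same count was not made over all tested genes, so it has no background to be read against. Leaving out estrus replicate 2 gave 8 members that rose and 0 that fell, and leaving out estrus replicate 3 gave 9 and 2. The counts became 12 and 2 when diestrus replicate 3 was dropped, and 14 and 3 when diestrus replicate 1 was dropped. Over all tested genes, the share called was 10.4% without estrus replicate 2, 24.3% without estrus replicate 3, 23.1% without diestrus replicate 3 and 38.5% without diestrus replicate 1, where the members had 22.2%, 30.6%, 38.9% and 47.2%. In 10 of the 13 members that rose, diestrus replicate 1 was the highest diestrus library. This was not counted over all genes that rose, so it is not shown to be particular to the members.

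**Figure D1:**
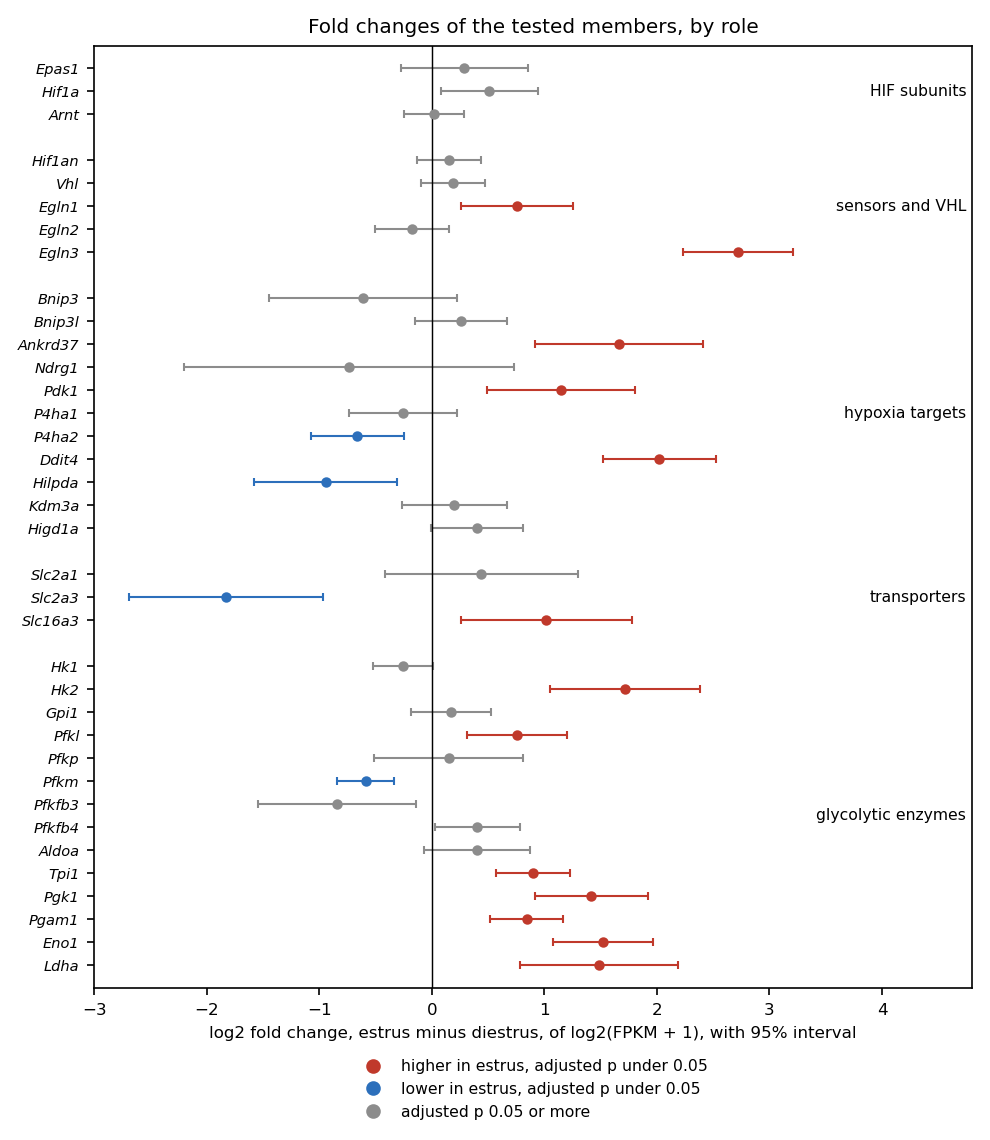
Log2 fold change of each tested member (points, estrus minus diestrus, from log2(FPKM + 1)) with its 95% interval from limma (bars), in blocks by role. Red points rose and blue points fell at an adjusted p under 0.05, and Egln3 at 2.72 and Slc2a3 at -1.82 lie farthest to either side of 0.

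Hif1a, the widely expressed oxygen-labile subunit (GRCm38 chromosome 12, 73901375 to 73947530), had 119.8, 127.4 and 105.5 FPKM in estrus libraries, against 86.1, 62.4, 106.5 and 78.3 FPKM in diestrus libraries. Estrus replicate 3 lay just under diestrus replicate 3, so the groups overlapped. Its log2 fold change was 0.51 (SE 0.19, limma adjusted p = 0.0698), and leaving out diestrus replicate 3 made it 0.64 (adjusted p = 0.0370). Epas1, which encodes the second alpha subunit and is best known from endothelial cells (chromosome 17, 86753700 to 86833410), had 34.5, 60.2 and 61.3 FPKM in estrus, against 30.9, 46.0, 40.6 and 48.7 FPKM in diestrus. Its estrus replicate 1 lay inside the diestrus range, and the 95% interval of its log2 fold change ran from -0.27 to 0.85.

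Hif3a, an alpha subunit that can oppose the other two in some forms, was at 0.208, 0.145 and 0.268 FPKM in estrus, against 0.170, 0.465, 5.55 and 2.89 FPKM in diestrus. It was above 1 FPKM in diestrus replicates 3 and 4 alone and was therefore not tested, and with no expression filter its log2 fold change was -1.09 (SE 0.60, adjusted p = 0.238). Arnt, the stable partner (chromosome 3, 95434388 to 95497240), had 27.2, 30.9 and 30.0 FPKM in estrus, against 27.2, 26.4, 30.9 and 31.5 FPKM in diestrus. The groups overlapped throughout, and the 95% interval of the Arnt log2 fold change was -0.24 to 0.28. By FPKM, Hif1a made up 63.2% to 77.5% of the summed level of the alpha subunits in estrus libraries and 57.3% to 73.5% in diestrus libraries, ahead of Epas1 in each. The sum itself was 154.5 to 187.8 FPKM in estrus and 108.9 to 152.7 FPKM in diestrus. It was higher in each estrus library, by a small gap at the nearest pair, and was not tested.

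Among the sensors, Egln3 had the largest log2 fold change of the 36 tested members, on the log2(FPKM + 1) scale. Egln3, a prolyl hydroxylase whose gene is itself a HIF target (chromosome 12, 54178981 to 54203860), had 27.3, 52.0 and 33.9 FPKM in estrus libraries, against 4.48, 5.40, 4.50 and 4.36 FPKM in diestrus libraries. Every estrus library stood far above every diestrus library. The log2 fold change was 2.72 (SE 0.21, limma adjusted p = 0.000872), and the adjusted p stayed between 2.76e-05 and 0.00691 over 17 alternative settings. Egln1, the main oxygen sensor (chromosome 8, 124908587 to 124949324), had 48.3, 61.7 and 61.6 FPKM in estrus, against 45.9, 37.1, 27.4 and 26.1 FPKM in diestrus. The groups were apart, but only by a small gap between estrus replicate 1 and diestrus replicate 1. Egln1 rose by 0.76 on the log2 scale (SE 0.21, adjusted p = 0.0333). That call was lost without any one library except diestrus replicate 1: the adjusted p was 0.0504, 0.125 and 0.0836 without estrus replicates 1 to 3, and 0.0509, 0.0738 and 0.0777 without diestrus replicates 2 to 4. It was also lost with quantile normalization (0.108) and with no expression filter (0.0527).

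Egln2, the third hydroxylase, had 41.2, 40.0 and 40.7 FPKM in estrus, against 57.7, 46.4, 39.9 and 42.3 FPKM in diestrus. These ranges overlapped, with a log2 fold change of -0.18 (95% interval -0.51 to 0.15). Egln3 therefore took 23.4%, 33.8% and 24.9% of the summed FPKM of the 3 hydroxylases in estrus, against 4.15% to 6.28% in diestrus, while the Egln1 share overlapped between groups. Vhl, the substrate receptor of the ubiquitin ligase (chromosome 6, 113623959 to 113631633), had 16.5, 16.4 and 15.8 FPKM in estrus, against 16.8, 13.2, 13.2 and 13.8 FPKM in diestrus. Diestrus replicate 1 lay above the estrus libraries and the other 3 below them. Hif1an, the asparagine hydroxylase, had 15.2, 16.9 and 15.9 FPKM in estrus, against 15.2, 13.3, 16.3 and 12.7 FPKM in diestrus. Neither passed (log2 fold changes 0.19 and 0.15, adjusted p = 0.267 and 0.359).

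**Figure D2:**
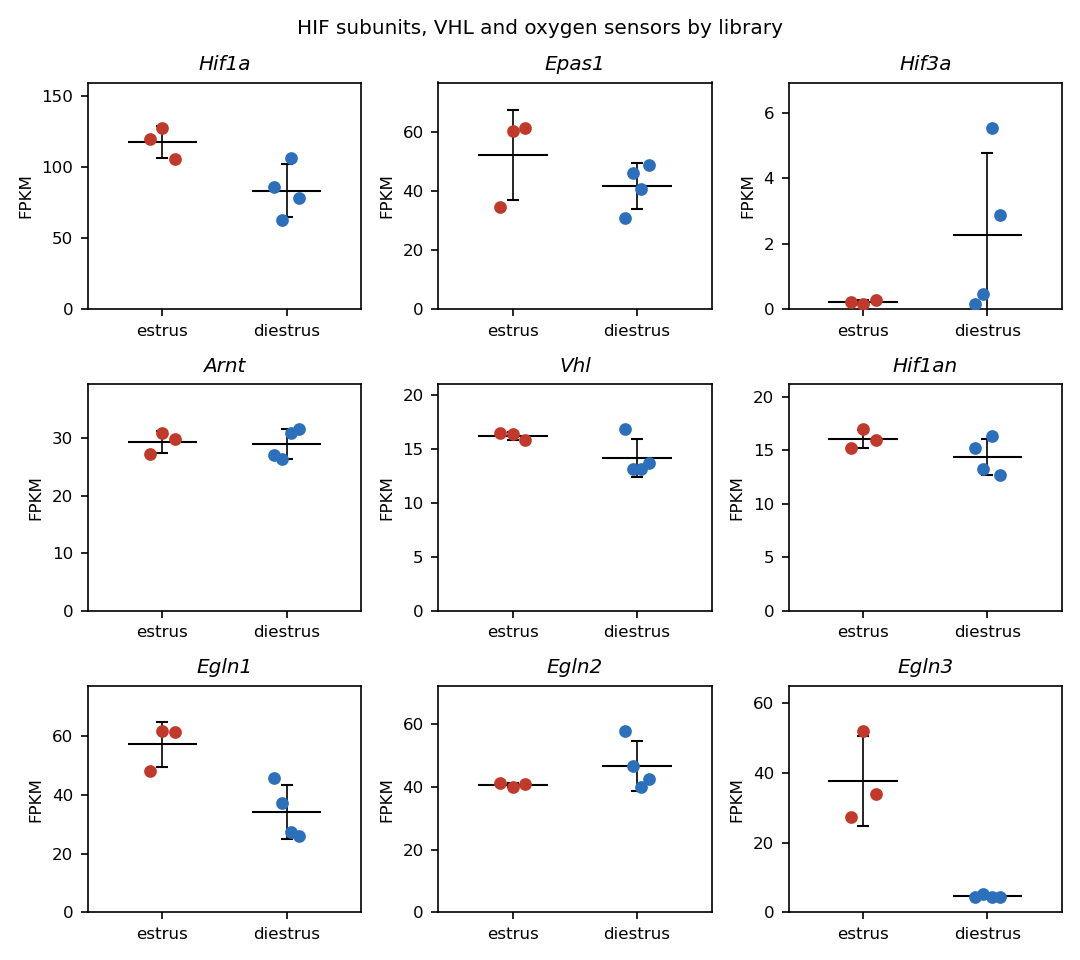
FPKM (linear axes from 0) of the HIF subunits, Vhl and the oxygen sensors in the 3 estrus libraries (red) and the 4 diestrus libraries (blue), with the mean (horizontal line) and SD (bars, ending at 0 where the SD exceeds the mean). Egln3 is at 27.3 to 52.0 FPKM in estrus and 4.36 to 5.40 FPKM in diestrus, whereas the groups of Arnt, Vhl and Epas1 overlap.

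The hypoxia targets were divided, with 3 that rose, 2 that fell and 6 that did not pass. Ddit4, an inhibitor of mTORC1 signalling that stress and hypoxia induce (chromosome 10, 59949669 to 59951834), had 54.5, 97.5 and 85.4 FPKM in estrus, against 22.1, 15.3, 18.2 and 17.6 FPKM in diestrus. The groups were well apart, and Ddit4 rose by 2.02 on the log2 scale (SE 0.22, limma adjusted p = 0.00151). Ankrd37, a small ankyrin repeat protein and HIF target (chromosome 8, 45996902 to 46005707), had 2.79, 9.43 and 6.48 FPKM in estrus, against 0.948, 0.921, 1.49 and 1.11 FPKM in diestrus. Its lowest estrus value was above all diestrus values, and it rose by 1.66 (SE 0.32, adjusted p = 0.00930). Both of these calls held without each library in turn. Pdk1, the kinase that switches off pyruvate dehydrogenase (chromosome 2, 71873224 to 71903858), had 5.88, 11.0 and 15.2 FPKM in estrus, against 3.59, 3.32, 4.97 and 4.10 FPKM in diestrus. Estrus replicate 1 was the nearest to diestrus. The Pdk1 log2 fold change was 1.152 (SE 0.28, adjusted p = 0.0212), with an adjusted p of 0.0874 without estrus replicate 2 and 0.0503 without estrus replicate 3.

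P4ha2 and Hilpda moved the other way. P4ha2, a catalytic subunit of the collagen prolyl hydroxylase (chromosome 11, 54100095 to 54131665), had 16.1, 13.0 and 12.7 FPKM in estrus, against 28.6, 19.8, 24.9 and 18.3 FPKM in diestrus. Hilpda, a lipid droplet protein that inhibits triglyceride breakdown (chromosome 6, 29272488 to 29275446), had 10.1, 7.79 and 6.04 FPKM in estrus, against 17.2, 12.8, 25.0 and 11.7 FPKM in diestrus. In both genes all estrus libraries were below all diestrus libraries. P4ha2 fell by 0.66 (SE 0.18, limma adjusted p = 0.0282) and Hilpda fell by 0.94 (SE 0.27, adjusted p = 0.0362) on the log2 scale. Neither call held without estrus replicate 2 (adjusted p = 0.112 and 0.114), estrus replicate 3 (0.0743 and 0.0971) or diestrus replicate 3 (0.0654 and 0.0548), and that of Hilpda was also lost without diestrus replicate 1 (0.0589) and with no expression filter (0.0615).

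The remaining hypoxia targets did not pass. Ndrg1, a stress-response gene that hypoxia induces in many cells, had 32.0, 41.2 and 81.9 FPKM in estrus, against 34.5, 45.7, 197.1 and 131.5 FPKM in diestrus. Diestrus replicates 3 and 4 were the high libraries, and replicates 1 and 2 lay within the estrus range. The same pair of libraries was high for Hif3a. Bnip3 and Bnip3l, receptors for the removal of mitochondria, averaged 5.95 ± 3.25 and 24.1 ± 3.68 FPKM in estrus (SD, n = 3) and 9.24 ± 3.23 and 20.0 ± 3.53 FPKM in diestrus (SD, n = 4). P4ha1, the partner isoform of P4ha2, averaged 27.0 ± 1.46 FPKM in estrus and 33.3 ± 8.48 FPKM in diestrus. The histone demethylase Kdm3a averaged 17.6 ± 3.99 FPKM in estrus and 15.1 ± 2.89 FPKM in diestrus. The mitochondrial protein Higd1a averaged 8.32 ± 0.62 FPKM in estrus and 6.14 ± 1.39 FPKM in diestrus, with an adjusted p of 0.115 that was 0.0412 without diestrus replicate 1.

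**Figure D3:**
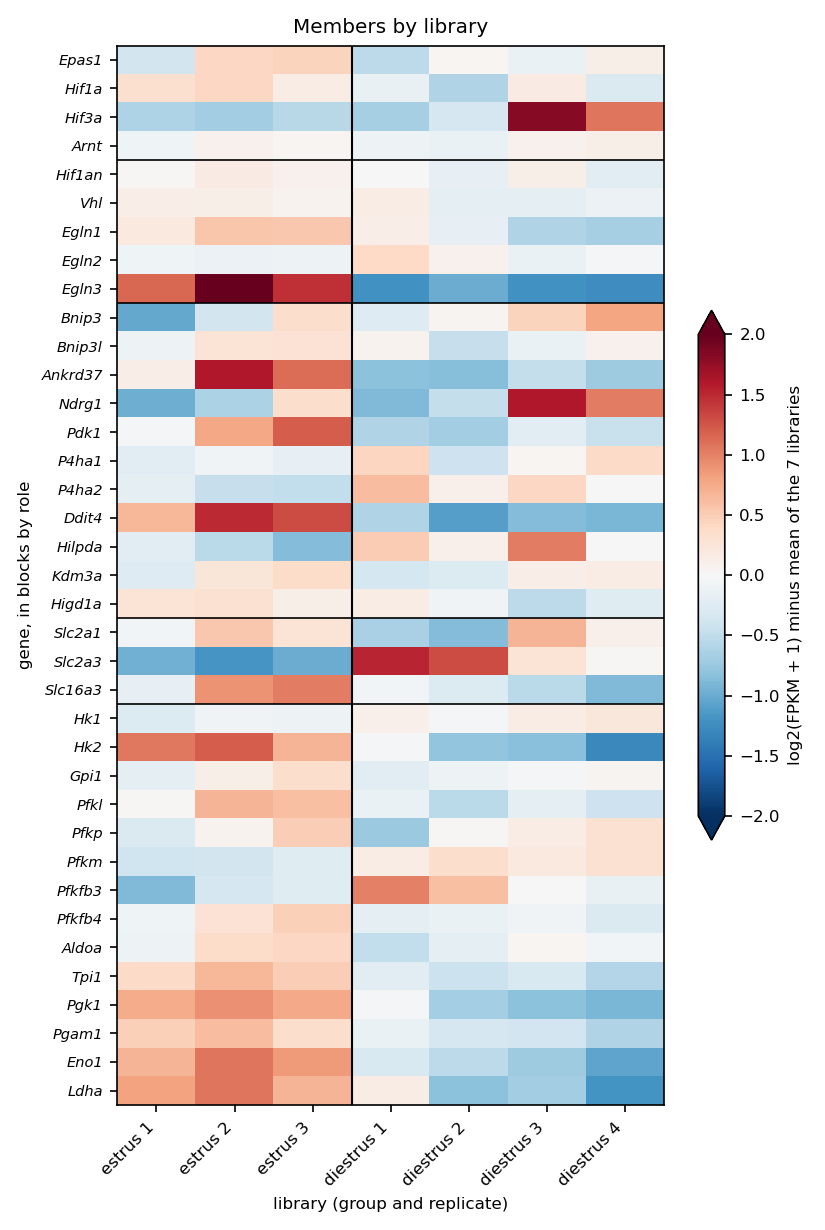
Members (rows, in blocks by role) in the 3 estrus and 4 diestrus libraries (columns), coloured by log2(FPKM + 1) minus the mean of the gene over the 7 libraries, with colours saturated at 2 either way. Egln3, Ddit4, Hk2, Pgk1, Eno1 and Ldha are red in estrus and mostly blue in diestrus, while Hif3a and Ndrg1 are highest in diestrus replicates 3 and 4.

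In glucose uptake, one transporter fell and another did not pass. Slc2a3, the high-affinity glucose transporter (chromosome 6, 122727809 to 122801640), had 1.99, 1.59 and 1.95 FPKM in estrus, against 15.8, 13.4, 6.09 and 4.95 FPKM in diestrus. All estrus values were low, and diestrus replicates 1 and 2 were the highest. Slc2a3 fell by 1.82 on the log2 scale (SE 0.37, limma adjusted p = 0.0111), with an adjusted p of 0.0532 without estrus replicate 2. Slc2a1, the basal glucose transporter (chromosome 4, 119108711 to 119137983), had 27.5, 41.9 and 34.996 FPKM in estrus, against 17.9, 15.2, 46.3 and 30.8 FPKM in diestrus. Its groups overlapped, with a 95% interval of the log2 fold change of -0.41 to 1.30. Within diestrus, replicates 1 and 2 had more Slc2a3 and less Slc2a1 than replicates 3 and 4. The Slc2a3 share of the summed FPKM of the pair was 6.75%, 3.66% and 5.27% in estrus, against 47.0%, 46.8%, 11.6% and 13.9% in diestrus, while the sum itself overlapped (29.5 to 43.5 FPKM in estrus and 28.6 to 52.4 FPKM in diestrus).

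Slc16a3, a lactate exporter of glycolytic cells (chromosome 11, 120948480 to 120960868), had 1.84, 4.94 and 5.45 FPKM in estrus, against 2.07, 1.64, 1.20 and 0.721 FPKM in diestrus. Estrus replicate 1 lay below diestrus replicate 1, so it was the one member that rose with overlapping groups. Its log2 fold change was 1.02 (SE 0.33, limma adjusted p = 0.0486), and the adjusted p was 0.170 and 0.129 without estrus replicates 2 and 3 and 0.0748, 0.0973 and 0.111 without diestrus replicates 2 to 4. It was also not called with median-ratio scaling (0.0556), a pseudocount of 0.1 (0.0524) or no expression filter (0.0827). The related carrier Slc16a1, from the list of other glycolysis genes, was far more abundant, at 60.5, 76.4 and 71.0 FPKM in estrus, against 12.0, 15.0, 17.1 and 23.3 FPKM in diestrus. It rose by 2.01 (SE 0.21, adjusted p = 0.00147), a call that held without each library in turn, and made up 92.9% to 97.1% of the summed FPKM of the 2 carriers in estrus libraries and 85.3% to 97.0% in diestrus libraries.

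At the first step of glycolysis, Hk2, the insulin- and hypoxia-inducible hexokinase (chromosome 6, 82725025 to 82774454), had 26.2, 29.1 and 19.9 FPKM in estrus, against 11.8, 6.54, 6.33 and 4.36 FPKM in diestrus. It rose by 1.72 on the log2 scale (SE 0.29, limma adjusted p = 0.00570). Hk1, the constitutive hexokinase (chromosome 10, 62268855 to 62379908), averaged 37.04 ± 2.86 FPKM in estrus and 44.5 ± 3.59 FPKM in diestrus. All its estrus libraries were below all its diestrus libraries, but it did not pass (log2 fold change -0.26, adjusted p = 0.120). With quantile normalization the adjusted p of Hk1 was 0.0247. Gpi1, the isomerase that follows, averaged 80.4 ± 15.2 FPKM in estrus and 70.6 ± 5.55 FPKM in diestrus, with overlapping groups.

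The phosphofructokinase genes, which encode the committed step, did not move together. Pfkl, the liver-type subunit (chromosome 10, 77986947 to 78010083), had 35.2, 56.2 and 53.1 FPKM in estrus, against 31.6, 23.5, 30.0 and 25.7 FPKM in diestrus. Pfkm, the muscle-type subunit (chromosome 15, 98092589 to 98132451), had 11.5, 11.8 and 13.0 FPKM in estrus, against 17.4, 20.0, 17.9 and 19.5 FPKM in diestrus. Neither gene overlapped between groups. Pfkl rose by 0.76 (SE 0.19, limma adjusted p = 0.0227) and Pfkm fell by 0.59 (SE 0.11, adjusted p = 0.00801). The Pfkl call was lost without estrus replicates 2 and 3 (adjusted p = 0.102 and 0.0643), without diestrus replicates 2 and 4 (0.0511 and 0.0589) and with quantile normalization (0.0551), and the Pfkm call without estrus replicate 2 (0.0509). Pfkp, the platelet-type subunit, averaged 24.1 ± 6.82 FPKM in estrus and 21.9 ± 6.41 FPKM in diestrus and did not pass. Its log2 fold change of 0.15 was -0.052 without estrus replicate 3 and -0.077 without diestrus replicate 1.

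Pfkfb3 and Pfkfb4 make fructose 2,6-bisphosphate, the main activator of phosphofructokinase. Pfkfb3 ranged from 11.3 to 18.2 FPKM in estrus and from 19.4 to 44.3 FPKM in diestrus, and Pfkfb4 from 3.20 to 5.18 FPKM in estrus and from 2.63 to 3.21 FPKM in diestrus. Neither passed (log2 fold changes -0.85 and 0.40, limma adjusted p = 0.0667 and 0.0923), although the Pfkfb3 groups did not overlap. Without estrus replicate 1 the adjusted p of Pfkfb4 was 0.0445, and with quantile normalization it was 0.0489.

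Downstream of aldolase, Tpi1, Pgk1, Pgam1, Eno1 and Ldha rose, while Gapdh and Pkm, from the list of other glycolysis genes, did not pass. Aldoa, the aldolase of muscle and most tissues, averaged 432.3 ± 80.9 FPKM in estrus and 326.1 ± 50.3 FPKM in diestrus and did not pass (log2 fold change 0.40, limma adjusted p = 0.163). Tpi1, triose phosphate isomerase (chromosome 6, 124810586 to 124814296), had 266.8, 322.2 and 288.2 FPKM in estrus, against 174.7, 151.1, 164.1 and 136.2 FPKM in diestrus. Pgk1, phosphoglycerate kinase, which makes the first ATP of the pathway (chromosome X, 106187100 to 106203699), had 19.2, 21.7 and 19.4 FPKM in estrus, against 10.8, 6.51, 5.84 and 5.41 FPKM in diestrus. The groups of both were apart, with diestrus replicate 1 the highest diestrus library. Tpi1 rose by 0.90 (SE 0.14, adjusted p = 0.00488) and Pgk1 by 1.42 (SE 0.22, adjusted p = 0.00429).

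Pgam1, the mutase (chromosome 19, 41911923 to 41918660), had 35.01, 38.7 and 31.9 FPKM in estrus, against 22.6, 19.4, 18.8 and 16.1 FPKM in diestrus. Eno1, the enolase of most tissues (chromosome 4, 150236721 to 150248879), had 50.2, 65.8 and 56.8 FPKM in estrus, against 24.7, 21.2, 18.5 and 14.3 FPKM in diestrus. Pgam1 rose by 0.84 (SE 0.14, limma adjusted p = 0.00535) and Eno1 by 1.52 (SE 0.19, adjusted p = 0.00250), with no overlap between groups in either. Ldha, the lactate dehydrogenase subunit that dominates in glycolytic tissue (chromosome 7, 46841475 to 46855627), had 389.5, 467.7 and 358.6 FPKM in estrus, against 247.5, 126.3, 137.2 and 96.8 FPKM in diestrus. Diestrus replicate 1 lay between its own group and estrus. Ldha rose by 1.49 (SE 0.30, adjusted p = 0.0111), with an adjusted p of 0.0563 without estrus replicate 2. The Tpi1, Pgk1, Pgam1, Eno1 and Hk2 calls held without each library in turn. Near-identical copies, at least 95% identical over at least 50% of the coding sequence in GENCODE transcripts, were found for 8 members, among them the 4 called genes Pgk1, Pgam1, Eno1 and Ldha, so their levels may miss or share reads. The copy of Eno1 in the table, Eno1b, stood at 17.4, 22.0 and 18.4 FPKM in estrus, against 6.81, 12.0, 9.59 and 8.44 FPKM in diestrus. Gapdh, which makes 1,3-bisphosphoglycerate, averaged 6.02 ± 0.28 FPKM in estrus and 4.14 ± 0.76 FPKM in diestrus (adjusted p = 0.0518). Copies were sought for members only, so the level of Gapdh, which is known for many processed pseudogenes, may also miss or share reads. Pkm, the pyruvate kinase of most tissues, averaged 267 ± 51.8 FPKM in estrus and 255 ± 37.5 FPKM in diestrus (adjusted p = 0.831). In GENCODE, 16 members are overlapped by a gene on the other strand, and for 7 of them that gene is also in the table. Called members with such a neighbour in the table were Ankrd37 (Ufsp2 and Lrp2bp), Pfkm (Senp1) and Tpi1 (Spsb2), and no strand setting is named in the sources used here.

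**Figure D4:**
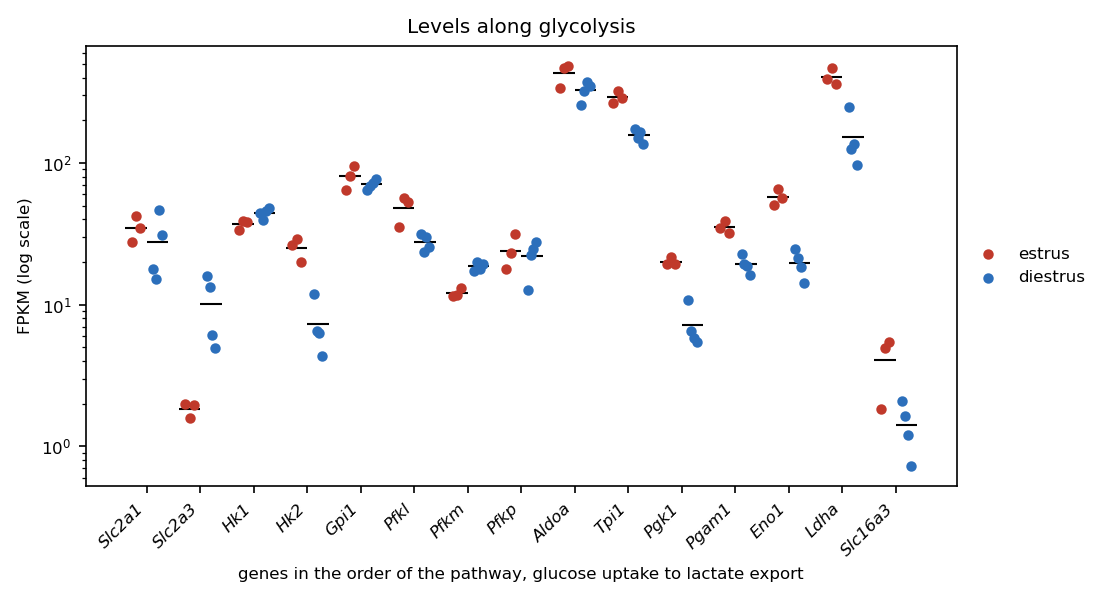
FPKM on a log axis of the genes from glucose uptake to lactate export, in pathway order, with 1 point per library (estrus red, diestrus blue) and the group mean as a line. For Tpi1, Pgk1, Pgam1, Eno1 and Ldha all estrus points lie above all diestrus points, whereas Aldoa and Gpi1 overlap and Slc2a3 and Pfkm lie lower in estrus.

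Shares within gene families were put together after the values were seen and are given without a test. They rest on levels of different genes, and those of Ldha and Eno1 may miss or share reads with their copies (Eno1b was left out of the enolase sum). Hk2 made up 42.9%, 41.9% and 32.7% of the hexokinase FPKM in estrus, against 20.8%, 13.5%, 11.9% and 8.06% in diestrus. The summed level of Hk1, Hk2 and Hk3 was 61.0 to 69.5 FPKM in estrus and 48.6 to 56.7 FPKM in diestrus. The total was thus also higher in each estrus library. Ldha made up 86.4%, 96.5% and 92.1% of the sum of Ldha and Ldhb in estrus, against 66.9%, 32.2%, 52.6% and 35.1% in diestrus. Ldhb encodes the subunit typical of oxidative tissue. In diestrus replicates 2 and 4 Ldhb was the more abundant of the pair, and in each of the other 5 libraries Ldha was. Eno1 took 85.6% to 90.0% of the enolase FPKM in estrus and 54.4% to 63.7% in diestrus, against Eno2 and Eno3, the enolases typical of neurons and muscle. Pfkm took 12.9% to 17.9% of the phosphofructokinase FPKM in estrus and 24.7% to 30.3% in diestrus. Among the pyruvate dehydrogenase kinases, Pdk1 took 15.0% to 31.8% in estrus and 5.73% to 8.76% in diestrus, while Pdk2 took 30.2% to 34.4% in estrus and 53.5% to 61.5% in diestrus. The summed level of Pdk1, Pdk2, Pdk3 and Pdk4 was 39.1 to 47.9 FPKM in estrus and 50.2 to 71.6 FPKM in diestrus. That total was thus lower in each estrus library, although the Pdk1 share was higher.

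**Figure D5:**
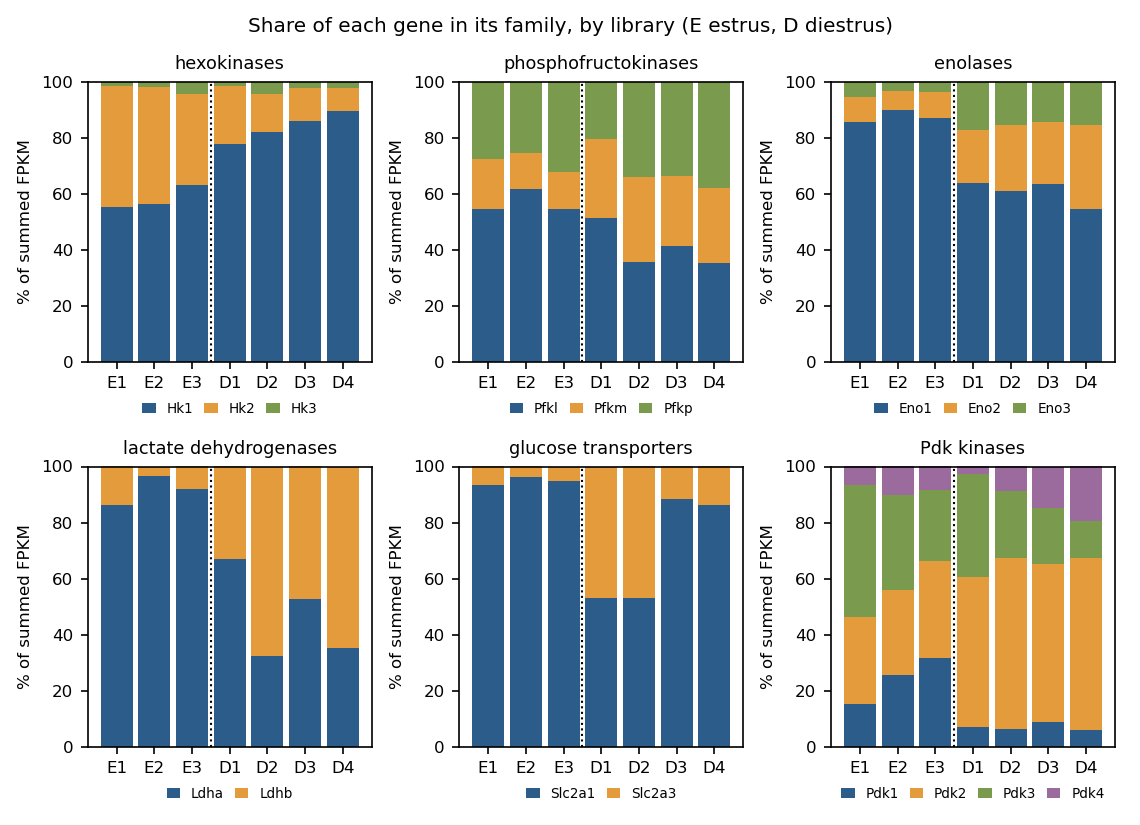
Percent of the summed FPKM of a gene family held by each gene, stacked to 100, in estrus replicates 1 to 3 (E1 to E3) and diestrus replicates 1 to 4 (D1 to D4). The orange Ldhb and Slc2a3 parts are narrow in estrus (at most 13.6% and 6.75%), and the orange Hk2 part is wider in estrus (32.7% to 42.9%) than in diestrus (8.06% to 20.8%).

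Other genes of the pathway were counted in the same fit. Of 11 HIF cofactors and VHL ligase genes, 2 rose and 1 fell in limma, or 18.2% and 9.09%, near the 17.2% and 14.0% of all tested genes. Arnt2, a relative of Arnt, fell by 1.42 on the log2 scale, at 9.44, 6.17 and 4.47 FPKM in estrus, against 22.0, 21.5, 21.1 and 12.5 FPKM in diestrus (adjusted p = 0.00888). Siah2, a ubiquitin ligase that targets prolyl hydroxylases, rose by 0.65 (adjusted p = 0.0262), and Cul2, the scaffold of the VHL ligase, rose by 0.55 (adjusted p = 0.0360). The elongin Tceb1 did not pass (0.83, adjusted p = 0.0570), and without diestrus replicate 1 its adjusted p was 0.00508. The Arnt2 call held without each library in turn. Siah2 was not called without estrus replicates 1 and 2 (adjusted p = 0.0817 and 0.0836) or diestrus replicates 2 and 4 (0.0523 and 0.0627). Cul2 was not called without estrus replicates 1 and 2 (0.104 and 0.137) or diestrus replicates 2 to 4 (0.0769, 0.0719 and 0.0895).

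Of 24 further hypoxia targets, 7 rose and 1 fell, or 29.2% and 4.17%, against the same 17.2% and 14.0%. This list too was chosen with earlier results of these data known, so its shares are not a test of it. Stc2, a secreted glycoprotein, rose by 1.43 (34.6, 33.3 and 30.5 FPKM in estrus, against 13.9, 9.16, 11.9 and 11.8 FPKM in diestrus, limma adjusted p = 0.00145). The transcription repressor Bhlhe40 rose by 2.24 and the transferrin receptor Tfrc by 2.30 (adjusted p = 0.00185 and 0.00330). Car9, a carbonic anhydrase of the cell surface, was at 5.92, 12.9 and 10.5 FPKM in estrus, against 1.53, 1.74, 1.63 and 1.13 FPKM in diestrus. Those 4 calls held without each library in turn. Without estrus replicate 2, 4 genes rose. The 1 gene that fell, Adm (adrenomedullin, a vessel-widening peptide), was called in the fit without diestrus replicate 1 and in no other fit that left out a library. Of 19 tested genes of 24 on the list of other glycolysis and pyruvate genes, 3 rose and 3 fell, 15.8% each way, near the share of all tested genes. Ldhb was at 61.2, 17.0 and 30.6 FPKM in estrus, against 122.4, 265.5, 123.7 and 179.3 FPKM in diestrus, and fell by 2.33 (adjusted p = 0.00860). Pdk2 fell by 1.21 (adjusted p = 0.00425), and both calls held without each library in turn. Eno3 fell by 0.68 (adjusted p = 0.0290), a call lost without estrus replicates 2 and 3 (0.113 and 0.0746) and diestrus replicate 2 (0.0626). On that list 1 gene rose when any of estrus replicates 1, 2 or 3 or diestrus replicate 4 was left out, and 2 rose without diestrus replicate 3.

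The summed levels of epithelium and endothelium markers differed between the groups, and those of the other cell types overlapped. Of 9 epithelium markers 7 rose and none fell (Krt18 and Cldn4 did not pass), and their summed level was 3071 to 3613 FPKM in estrus and 859 to 1155 FPKM in diestrus. All 7 endothelium markers fell, with sums of 122 to 157 FPKM in estrus and 217 to 496 FPKM in diestrus. Of 7 stroma markers 2 fell, of 7 smooth muscle markers 1 rose, and of 6 macrophage markers 1 rose and 3 fell. Their sums overlapped between groups, at 3130 to 4102 FPKM in estrus and 2678 to 5042 FPKM in diestrus for stroma, 3317 to 5816 FPKM in estrus and 2927 to 7524 FPKM in diestrus for smooth muscle, and 328 to 395 FPKM in estrus and 270 to 579 FPKM in diestrus for macrophages. Of 7 red blood cell genes 4 were matched in the table, and none passed in limma (none at an unadjusted p under 0.05), with sums of 359 to 1010 FPKM in estrus and 237 to 1138 FPKM in diestrus. No marker in the table was under 1 FPKM in every library. In whole tissue, fewer cells of a type and less RNA per cell cannot be told apart, and the part of these markers in the changes of the members was not tested.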

How the data were processed

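Per the labels' protocols, uterine RNA was cleaned with RNeasy including DNase, and TruSeq libraries were sequenced. The values deposited by the authors were FPKM, 1 column per library. TopHat2 2.0.4 and mm10 are named, with no role, per the submitters' processing notes. The FPKM program, annotation and strand setting: not given in the sources used here. Each column name matched 1 sample label, 0 columns were left over, and groups came from titles.

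Because FPKM are not counts, log2(FPKM + 1) was fitted by limma 3.58.1 (R 4.3.3) for genes reaching 1 FPKM in 3 or more libraries, with group as the only term, an intensity trend and Benjamini-Hochberg adjustment over all 13920 tested genes (threshold 0.05). Fold changes (estrus minus diestrus) stand on that scale, which understates changes of low genes. FPKM has no depth, so no counting intervals were given. Members and lists were chosen with earlier results of these data known. Values in every library are given for the HIF subunits, sensors, Vhl and called members, and up to 4 genes with the smallest p are named from each other list. Adm, Gapdh and Pkm were added after their values were seen. Of the other lists, Tigar and Adgre1 were matched by a RefSeq synonym.

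Coordinates are from GENCODE vM21 (GRCm38, the assembly called mm10) and promoter windows from RefSeq. Near-identical copies were sought with BLAST 2.17.0. Fits were tested on simulated data with independent noise and far fewer changed genes than were called here. Those data do not cover a library that stands apart from its group. Alternatives varied the pseudocount (0.1 and 5), the filter (none, or 5 FPKM on average), the scaling (median-ratio, quantile), the variance model (without trend, robust, library weights), a replicate block, and the libraries, each left out in turn. Plots used matplotlib 3.10.9 (Python 3.11.15).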

Additional observations from a re-analysis of the deposited data

Results flagged for a closer look

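In the 4 diestrus libraries, the highest Vhl value, 16.8 FPKM in replicate 1, stood apart from the other 3 libraries by more than 0.829 of the range of the group, the limit of Dixon's test for 4 values, and the same held for Egln3 at 5.40 FPKM in replicate 2. Chance alone gives such a gap in about 1 of 20 groups, and 37 members were looked at. The Egln3 value is still below all estrus values.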

How the results depend on the processing

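Of the 17 called members, 8 (Egln3, Ankrd37, Ddit4, Hk2, Tpi1, Pgk1, Pgam1 and Eno1) passed in every alternative run on them, and 0 values of called members changed sign. Over 609 values of members under alternatives, 544 kept direction and side of the threshold, 39 lost the call, 17 gained one (12 of them with library weights) and 9 changed sign. Those 9 concern 3 genes: Arnt with median-ratio scaling (-0.023) and quantile normalization (-0.14), Gpi1 with quantile normalization (-0.076), Pfkp with library weights (-0.026), and, without single libraries, Arnt (range over all 7 omissions -0.023 to 0.072) and Pfkp (-0.077 to 0.34). With library weights, whose estimation stopped before it converged, 9367 of all genes were called against 4336, and 21 members rose and 8 fell. Leaving out single libraries gave 1433 to 5311 called genes, 8 to 14 members that rose and 0 to 4 that fell. The median fold change of all tested genes was 0.0082 with median-ratio scaling and -0.019 with quantile normalization, and the shares that rose and fell were close to even with both (2141 and 2125, and 1684 and 1914), against 2393 and 1943 in the fit reported. The labels number the replicates in both groups, and whether equal numbers pair libraries is not known. The correlation of deviations from the group mean was 0.20, 0.02 and 0.17 for equal numbers 1 to 3. For unequal numbers it ran from -0.33 to 0.27, and so few correlations cannot decide the question. With the replicate block, which leaves diestrus replicate 4 without a partner, 2281 genes were called, and 10 members rose and 2 fell. The calls of Egln1, Slc16a3, Pfkl, Hilpda and Pfkm were those lost with the block. The cause of these shifts was not tested. FPKM gives no depth, so counting error of low genes such as Hif3a and Slc16a3 cannot be given.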
